A study of Mus musculus with 8 samples.

Results

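The genes described here encode the machinery that docks, primes and fuses secretory vesicles with the plasma membrane. In beta cells the vesicles are the insulin granules. They were chosen by gene symbol: syntaxins (Stx), Snap proteins, Vamps, syntaxin-binding proteins (Stxbp), complexins (Cplx), synaptotagmins (Syt), synaptotagmin-like proteins (Sytl), Doc2, Rab3 with its regulators, Rab27, Unc13 and Rims. Of the 16333 genes in the deposited tables, 68 fit that rule, and all of them had passed the filter on low genes that preceded deposit. The rule uses no measured value.

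RNA was sequenced in bulk from pancreatic islets of 4 mice of the strain labelled Agouti/C57BL6, 2 of them lacking NFATc2 in beta cells (NFATc2βKO, called KO below) and 2 wild type (WT). NFATc2 is a transcription factor that calcium switches on through the phosphatase calcineurin. Per the labels, the knockout was made in adult mice with tamoxifen, in cells that express insulin, and the WT mice had tamoxifen too but kept the gene. The islets of each mouse spent a night in 5.5 mM glucose and were then divided, which gave 4 groups of 2 libraries. KO islets with cytokines and WT islets with cytokines were held for 2 h with IL1β (5 ng/mL), TNFα (10 ng/mL), IFNγ (50 ng/mL) and 11 mM glucose, and untreated KO islets and untreated WT islets were left for 2 h without cytokines, at a glucose level that the labels do not give. The cytokines came together with the 11 mM glucose, and what each did cannot be told apart. No label says whether KO and WT mice were littermates, and the other islet cell types of a KO mouse keep the gene.

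The files hold group means, from which whole reads were recovered for each library, 14619269 to 26954275 per library. All 68 genes were among the 16314 that could be recovered. By their Y-linked reads, the 2 libraries of each group came from mice of opposite sex, and they are named by it. Levels are given in normalized counts, that is, reads divided by the size factor of the authors for that library. Nfatc2 itself had 987 and 899 normalized counts in KO libraries with cytokines, against 1646 and 1144 in WT libraries with cytokines. Untreated, it had 1167 and 842 in KO and 1557 and 1270 in WT. In the authors' deposited table its log2 fold change, KO over WT, was -0.49 ± 0.24 untreated (FDR 0.903) and -0.57 ± 0.24 with cytokines (FDR 0.474), where ± is the standard error of their model, as in all log2 fold changes below. A count over the whole gene cannot tell which exons were lost or in which cells. Insulin and other beta-cell markers were detected in all groups, with a sum over 9 genes of 1939160 normalized counts in KO islets with cytokines, 1820580 in WT islets with cytokines, 1915530 in untreated KO islets and 2056880 in untreated WT islets.

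As background, fusion is driven by a bundle of SNARE proteins: Vamp2 on the granule pairs with Snap25 and a syntaxin on the plasma membrane. Syntaxin-binding proteins and Unc13 prepare the syntaxin, Rab3 and Rab27 bring granules to the membrane through effectors such as granuphilin (Sytl4) and Rims, and synaptotagmins with complexins couple fusion to calcium. Tomosyns (Stxbp5 and Stxbp5l) hold the process back by occupying the syntaxin and Snap25.

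Islets expressed nearly every branch of this machinery at levels spread over 3 orders of magnitude. Between genes, levels are compared as normalized counts per kilobase of exon, averaged over all 8 libraries. The median of the 68 genes was 237 per kilobase, 8 genes lay above 1000 and 8 below 10. Together they took 0.809% and 0.830% of recovered normalized counts in KO libraries with cytokines, 0.807% and 0.811% in WT libraries with cytokines, 0.824% and 0.832% in untreated KO libraries and 0.822% and 0.821% in untreated WT libraries. The share spent on exocytosis genes was thus about the same in every library.

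Among the synaptotagmins, Syt13 was by far the most abundant of all 68 genes, at 5412 per kilobase. It is an atypical synaptotagmin that is not thought to bind calcium. Syt4, likewise atypical, stood at 1929 and Syt7, a calcium sensor of insulin release, at 804 per kilobase. Syt5 had 671 and Syt9, another sensor studied in beta cells, 111 per kilobase. The neuronal sensors Syt1 and Syt2 stood at 15.7 and 35.5 per kilobase, and Doc2b, a soluble calcium sensor, at 17.9. Syt6 was the lowest of the 15 synaptotagmin and Doc2 genes with 5.47 per kilobase. Cplx2, at 2290 per kilobase, was the only complexin among the 16333 genes. Complexins clamp and then release the SNARE bundle.

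The Rab branch was led by Rab27a, the granule Rab that recruits granuphilin, with 1624 per kilobase. Its effector granuphilin, Sytl4, had 1991 per kilobase. Rab3d and Rab3a followed with 1219 and 787, against 125 for Rab3b, 52.4 for Rab3c and 6.80 for Rab27b. The lowest synaptotagmin-like gene was Sytl3, at 21.1 per kilobase.

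Of the SNAREs proper, Vamp2 reached 1078 and Snap25 913 per kilobase, while Stx1a, the syntaxin usually named as their partner in beta cells, had 80.4 and ranked 48 of 68. Stx3 and Stx4a, 2 other plasma-membrane syntaxins, had 244 and 227 per kilobase. Vamp1 was the lowest vesicle SNARE (77.2 per kilobase) and Stx11, known from immune cells, the lowest plasma-membrane SNARE (7.58 per kilobase). The syntaxins of Golgi and endosomes ran between 86.5 (Stx8) and 722 (Stx12) per kilobase. Stxbp4 was the lowest of the syntaxin-binding genes, at 53.1 per kilobase. The priming group ran between 3.15 per kilobase for Unc13c, the lowest of the 68 genes, and 551 for Rims3, with Unc13a at 314 and Rims2 at 271.

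**Figure D1:**
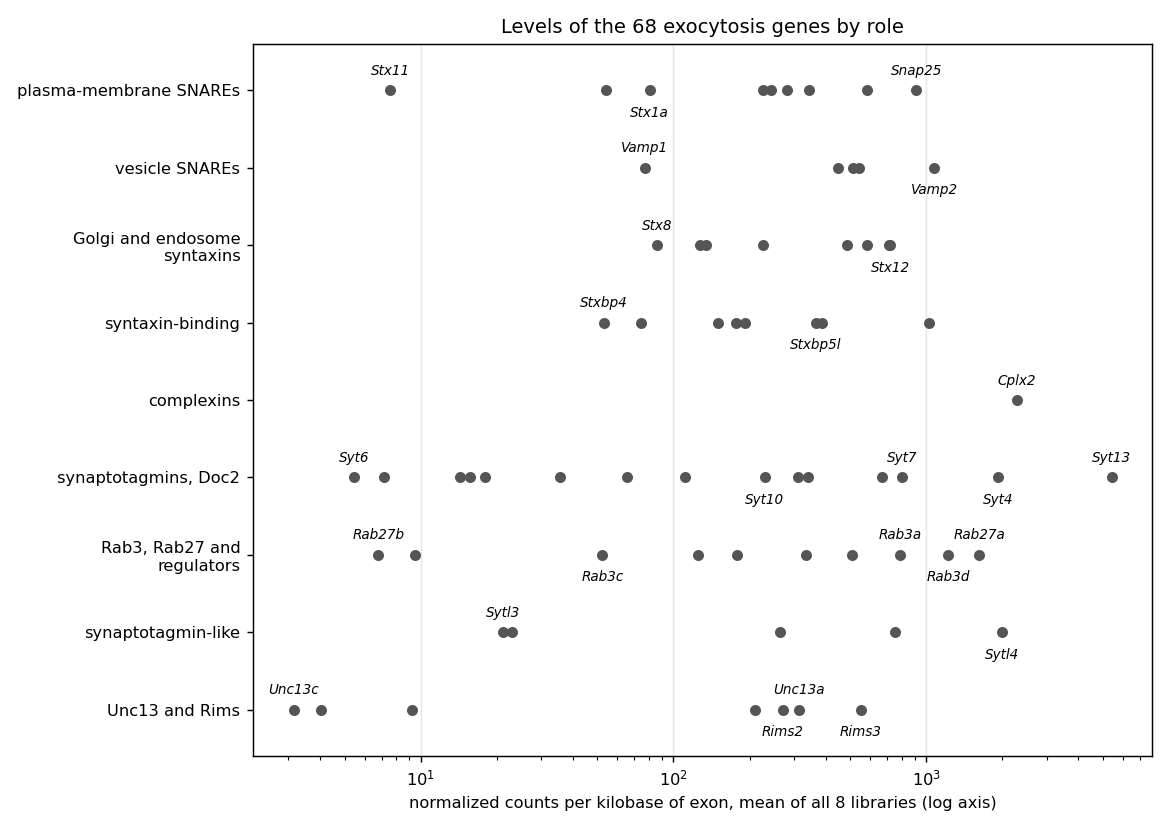
Normalized counts per kilobase of exon (log axis, mean of all 8 libraries) for the 68 genes, 1 point a gene, in rows by role. Syt13 at 5412, Cplx2 at 2290, Sytl4 at 1991 and Syt4 at 1929 lie farthest right, and Unc13c at 3.15 farthest left.

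Across the 8 libraries most of these genes were steady: the highest library was less than 1.5 times the lowest for 44 of 68 genes, and the median of that ratio was 1.33. Rab27a was the steadiest, between 6078 and 6514 normalized counts. Vamp2 ran between 3919 and 4289. Syt10 varied most, 12.1-fold, followed by Unc13c at 6.77-fold and Syt6 at 4.59-fold. Unc13c and Syt6 are among the lowest genes, while Syt10 is not.

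Some genes differed between the mice of the 2 sexes in every group. With 1 mouse of each sex per genotype, sex and individual cannot be told apart within a genotype. Of the 68 genes, 13 were higher in the female library in all 4 groups and 21 higher in the male one. Over all recovered genes those shares were 19.8% and 19.5%, and the shares of the exocytosis genes were 19.1% and 30.9%. Syt10 was the only one at least 1.5-fold higher in the male library in all 4 groups. No exocytosis gene was that much higher in all 4 female libraries.

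The first question the design poses is what cytokines with high glucose did within each genotype. Neither genotype showed a called change in any of the 68 genes after 2 h. In KO islets 0 genes passed an FDR of 0.05 in the authors' deposited table, where 0.0429% of all genes did, and 1 gene, Stx11, had an unadjusted p below 0.05 (1.02% of all genes). In WT islets 0 genes passed, against 0.0122% of all genes, and 0 had an unadjusted p below 0.05 (0.918% of all genes). With limma and each mouse as a block, 0 genes were called in either genotype as well, with 0.123% of all genes called in KO and 0.153% in WT. An unadjusted p below 0.05 was reached in that fit by 6 of the 68 genes in KO and 10 in WT. The share of all genes below that p was not counted for this fit. So few genes were called at all that a count of 0 says little about exocytosis genes in particular.

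The changes were small for most of these genes. Of the 68 genes, 61 lay within 0.2 of zero on the log2 scale in KO islets (80.2% of all genes) and 59 in WT islets (76.0% of all genes), by the authors' deposited tables. The median log2 fold change was -0.01 in KO and -0.02 in WT, against 0.00 and 0.00 for all genes. In WT islets 14 genes, or 20.6%, had both treated libraries below both untreated ones, where 10.9% of all genes did. Only 3 WT genes had both treated libraries above, where 11.3% of all genes did. In KO islets those counts were 6 lower and 11 higher, against 14.6% and 15.3% of all genes.

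The core of the insulin granule machinery shows this steadiness library by library. Vamp2 had 4081 and 4267 normalized counts in treated KO libraries (female, then male, here and below), against 4148 and 4289 in untreated KO libraries. In WT it had 3970 and 3919 treated, against 4211 and 3976 untreated. Its log2 fold change in the authors' deposited tables was -0.02 ± 0.10 in KO and -0.05 ± 0.10 in WT. Treated and untreated libraries overlapped in KO, and in WT both treated ones were slightly lower.

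Snap25 had 6555 and 7279 normalized counts in treated KO libraries, against 6301 and 6477 in untreated ones. In WT it had 4747 and 6717 treated, against 5452 and 6079 untreated, so that the female library was lower and the male library higher with cytokines. Cplx2 had 11424 and 10594 in treated KO libraries against 12220 and 10988 untreated, and 11295 and 10803 in treated WT libraries against 11441 and 11530 untreated. All 4 mice had slightly less Cplx2 with cytokines, with log2 changes within the mouse of -0.10 and -0.05 in KO and -0.02 and -0.09 in WT. Its log2 fold changes in the authors' deposited tables, -0.08 ± 0.11 in KO and -0.06 ± 0.11 in WT, were smaller than their standard errors. Those standard errors appear not to take account of the pairing by mouse. Xist, an X-linked gene read in females, had a log2 fold change of 0.067 ± 3.56 in KO. It had 62366 and 166 normalized counts in treated KO libraries, against 59575 and 108 in untreated ones. So large a standard error carries the difference between the mice.

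Rab3a, the Rab that tethers docked granules, gave one of the smallest p-values among the lower exocytosis genes in WT islets. It had 1592 and 1820 normalized counts in treated KO libraries and 1726 and 1824 in untreated KO libraries. Treated WT libraries had 1681 and 1602, against 1929 and 1843 in untreated WT libraries. The WT libraries do not overlap, while the KO libraries do. For WT, the log2 fold change in the authors' deposited table was -0.20 ± 0.12 (unadjusted p = 0.0949, FDR 1.00). With each mouse as a block, limma gave Rab3a in WT an unadjusted p of 0.00716 and an adjusted p of 0.252. Of the lower exocytosis genes in the authors' deposited WT table, Rab3d (-0.19 ± 0.11) and Stx5a, a Golgi syntaxin (-0.25 ± 0.14), were the others with the smallest p.

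Stx11 showed the largest log2 fold change with cytokines in both genotypes. This syntaxin is best known for the release of cytotoxic granules by lymphocytes. It had 52.0 and 56.0 normalized counts in treated KO libraries, against 26.7 and 13.3 in untreated KO libraries. Treated WT libraries had 39.1 and 30.8, against 19.9 and 17.2 in untreated WT libraries. It was therefore higher with cytokines in 4 of 4 mice, with no overlap in either genotype, from 15 to 66 reads per library. Its log2 fold change in the authors' deposited tables was 1.45 ± 0.64 in KO (unadjusted p = 0.0236, FDR 1.00) and 0.91 ± 0.67 in WT (unadjusted p = 0.172, FDR 1.00), so neither passed the adjustment. Its untreated means, 20.0 in KO and 18.6 in WT, lie under the lowest mean over all libraries in the tables, 23.2, so it passed the earlier filter through its treated libraries, and that filter favours a higher level with cytokines. Without the female KO mouse the KO value was 2.00 and without the male KO mouse 0.94.

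Leukocyte markers, summed, stood higher with cytokines in both KO mice and in the female WT mouse. Their sum over 6 of the 8 listed genes was 2669 and 3347 normalized counts in treated KO libraries, against 2074 and 1810 in untreated KO libraries. In WT it was 1426 and 1236 treated, against 1008 and 1289 untreated, so the treated library was higher in the female WT mouse and lower in the male WT mouse. The other 2 listed markers are not among the tested genes. Of the 6 genes, 4 had a positive and 2 a negative log2 fold change with cytokines in KO islets, with a median of 0.44. In WT islets 6 were positive, with a median of 0.30. Ptprc, the pan-leukocyte surface phosphatase, had the smallest p of the list in KO islets. Its log2 fold change with cytokines there was 1.33 ± 0.34 in the authors' deposited table (FDR 0.154). The part of leukocytes in the Stx11 values was not tested. In bulk tissue more cells of a type and more RNA per cell cannot be told apart.

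Syt12, a synaptotagmin that does not bind calcium, was also higher with cytokines in 4 of 4 mice. Treated KO libraries had 63.4 and 30.6 normalized counts, against 37.4 and 25.1 in untreated KO libraries. Treated WT libraries had 73.8 and 30.8, against 37.2 and 18.3 in untreated WT libraries. The female libraries were the higher ones in every group and the groups overlapped. The log2 fold change in the authors' deposited tables was 0.59 ± 0.77 in KO and 0.91 ± 0.78 in WT, and 17.2% of its exonic bases lie in exons of other genes. Syt6 was lower with cytokines in KO islets, with 25.4 and 18.7 normalized counts treated, against 57.9 and 26.6 untreated. Its log2 fold change there was -0.99 ± 0.90 in the authors' deposited table. Fitted with limma on the recovered reads, it was -0.49 without the female KO mouse and -1.16 without the male KO mouse.

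**Figure D2:**
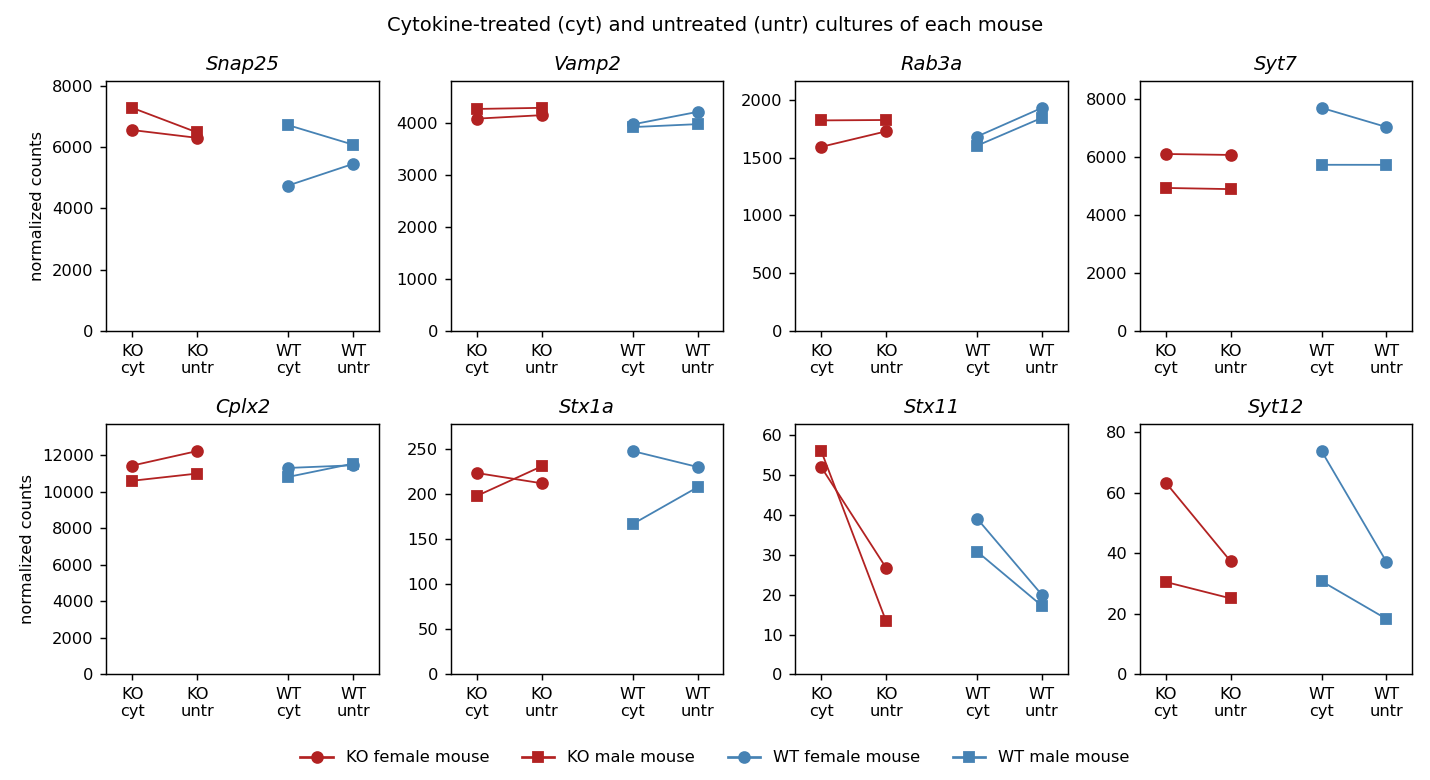
Normalized counts in the cytokine-treated and untreated culture of each mouse for 8 exocytosis genes, with KO mice in red, WT mice in blue, circles for females, squares for males and a line for each mouse. The lines of Vamp2, Syt7 and Cplx2 are nearly flat, while Stx11 is higher with cytokines in 4 of 4 mice, at 13.3 to 56.0 normalized counts.

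No gene was called for a difference between the 2 genotypes in the cytokine response. The test took the difference of the 2 log2 fold changes in the authors' deposited tables over their joint standard error, adjusted by Benjamini-Hochberg over all genes. It called 0 of 68 exocytosis genes and 0% of all genes, and 0 of 68 had an unadjusted p below 0.05 (0.22% of all genes). limma on the recovered reads called 0 with and without a block. The median difference was 0.02 for the 68 genes and 0.00 for all genes.

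The second question is how islets without NFATc2 in beta cells differ from WT islets. Here a few genes stood out, and all of those called were higher in KO. In untreated islets 1 of 68 genes, Rims3, passed an FDR of 0.05 in the authors' deposited table, where 0.41% of all genes did and 0.355% were higher in KO. In islets with cytokines 2 genes, Rims3 and Stxbp5l, passed, where 0.998% of all genes did and 0.814% were higher in KO. An unadjusted p below 0.05 was reached by 4 genes in each comparison, all higher in KO (4.89% of all genes untreated, with 3.37% higher, and 5.88% with cytokines, with 3.64% higher), so the counts lie near the background. The 2 comparisons use the same 4 mice and are not independent of each other. Untreated, 10 genes had both KO libraries above both WT libraries and 15 had them below (18.6% and 18.3% of all genes). With cytokines 11 lay above and 6 below (14.7% and 14.2% of all genes). The medians lay near zero: the median log2 fold change in the authors' deposited tables was -0.02 untreated and 0.02 with cytokines, against 0.00 and 0.00 for all genes.

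**Figure D3:**
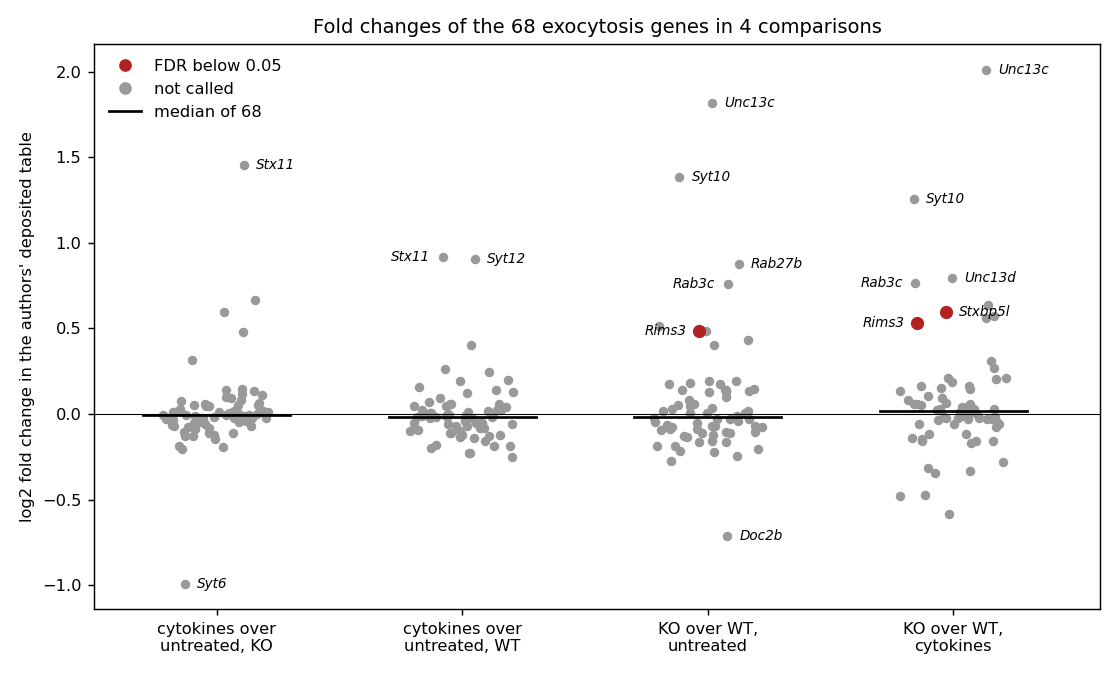
Log2 fold changes of the 68 genes in the authors' deposited tables, 1 point a gene, for cytokines over untreated in KO and in WT and for KO over WT untreated and with cytokines; the black line is the median and red marks an FDR below 0.05. The red points are Rims3 at 0.49 untreated and Rims3 at 0.53 and Stxbp5l at 0.60 with cytokines.

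Rims3 (ENSMUSG00000032890) encodes a short member of the Rim family, whose long members link Rab3-bearing vesicles to the site of release. The gene lies on the plus strand at chr4:120854816-120896579 (GRCm38). It had 4636 and 5277 normalized counts in KO libraries with cytokines, against 3398 and 3467 in WT libraries with cytokines. Untreated KO libraries had 4989 and 5720, against 3670 and 3976 in untreated WT libraries. Every KO library was above every WT library, in 2 of 2 sexes and in both cultures. In the authors' deposited tables Rims3 was 1.40-fold higher untreated (log2 0.49 ± 0.13, FDR 0.0453) and 1.44-fold higher with cytokines (log2 0.53 ± 0.13, FDR 0.00775). The call depends on the fit: without a block limma gave adjusted p = 0.409 untreated and 0.224 with cytokines.

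Stxbp5l (ENSMUSG00000022829), or tomosyn-2, restrains SNARE assembly by binding syntaxin. It lies on the minus strand at chr16:37114942-37384962. It had 3768 and 3800 normalized counts in KO libraries with cytokines, against 2185 and 2817 in WT libraries with cytokines. Untreated it had 3629 and 3615 in KO, against 2357 and 2724 in WT. The KO libraries were nearly equal to each other and all lay above the WT libraries. In the authors' deposited tables it was 1.51-fold higher with cytokines (log2 0.60 ± 0.16, FDR 0.0183), and untreated 1.43-fold (log2 0.51 ± 0.16, FDR 0.132), which did not pass. Its relative Stxbp5, the other tomosyn, had log2 fold changes of 0.06 untreated and -0.02 with cytokines in the authors' deposited tables.

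The promoters of these called genes are shown because the missing factor is one that binds DNA. The windows run 250 bases before to 50 after the start of the gene, from RefSeq on GRCm38.p6, at chr4:120854549-120854848 on the plus strand and chr16:37384909-37385208 on the minus strand. Capitals mark the core letters of NFAT sites, GGAAA, or their reverse TTTCC.
Rims3: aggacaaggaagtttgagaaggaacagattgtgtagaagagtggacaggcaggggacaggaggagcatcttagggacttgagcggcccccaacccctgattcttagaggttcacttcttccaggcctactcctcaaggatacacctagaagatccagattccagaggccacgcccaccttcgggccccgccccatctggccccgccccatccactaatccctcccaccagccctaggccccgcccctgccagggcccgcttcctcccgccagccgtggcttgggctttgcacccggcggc
Stxbp5l: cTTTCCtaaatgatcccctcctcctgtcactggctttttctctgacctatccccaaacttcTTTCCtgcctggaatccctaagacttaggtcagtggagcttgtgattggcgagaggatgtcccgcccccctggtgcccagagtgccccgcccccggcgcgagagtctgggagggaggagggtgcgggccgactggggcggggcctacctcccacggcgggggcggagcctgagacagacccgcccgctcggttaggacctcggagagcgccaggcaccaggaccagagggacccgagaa

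The Rims3 window holds 0 matches and the Stxbp5l window 2, both as TTTCC. A match is only a run of 5 letters: it occurred in 61.3% of all 32851 promoter windows, and in 39 of the 69 windows found for 54 of the 68 exocytosis genes, or 56.5%. Of the 13831 windows of measured genes, 58.8% held it. These shares lie close together and were not tested against each other, and a match says nothing of whether NFATc2 binds.

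Rab3c, Unc13c and Syt10 were also higher in KO than in WT within each sex, though none passed the authors' FDR. Rab3c, a Rab3 form of neurons and endocrine cells, had 696 and 920 normalized counts in KO libraries with cytokines, against 369 and 582 in WT libraries with cytokines. Untreated it had 646 and 912 in KO, against 315 and 605 in WT. The groups do not overlap, and within each genotype the male library was the higher one. Its log2 fold change in the authors' deposited tables was 0.76 ± 0.35 untreated (FDR 0.816) and 0.76 ± 0.34 with cytokines (FDR 0.610).

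Unc13c, the Munc13 form best known from the cerebellum, was the lowest of the 68 genes but showed the largest fold change. It had 44.4 and 45.9 normalized counts in KO libraries with cytokines, against 9.77 and 12.5 in WT libraries with cytokines. Untreated it had 31.2 and 54.0 in KO, against 7.98 and 16.0 in WT. These rest on 35 to 73 reads in KO and 6 to 15 in WT libraries. In the authors' deposited tables its log2 fold change was 1.81 ± 0.66 untreated (FDR 0.376) and 2.01 ± 0.65 with cytokines (FDR 0.125). No library of KO reached down to the range of WT. Both WT means, of which that with cytokines was 11.1, lie under the lowest mean over all libraries in the tables, 23.2, so the gene passed the earlier filter through its KO libraries, and that filter favours a large fold change in this direction.

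Syt10, a synaptotagmin studied in neurons as a calcium sensor of growth-factor release, varied with both genotype and mouse. It had 289 and 870 normalized counts in KO libraries with cytokines, against 78.2 and 407 in WT libraries with cytokines. Untreated it had 325 and 943 in KO, against 134 and 352 in WT. The female KO library thus lay below the male WT library, yet within females KO was 3.70-fold higher with cytokines and 2.42-fold untreated, and within males 2.14-fold and 2.68-fold. In the authors' deposited tables Syt10 had a log2 fold change of 1.38 ± 1.11 untreated and 1.26 ± 1.11 with cytokines, with FDR 1.00 in both.

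**Figure D4:**
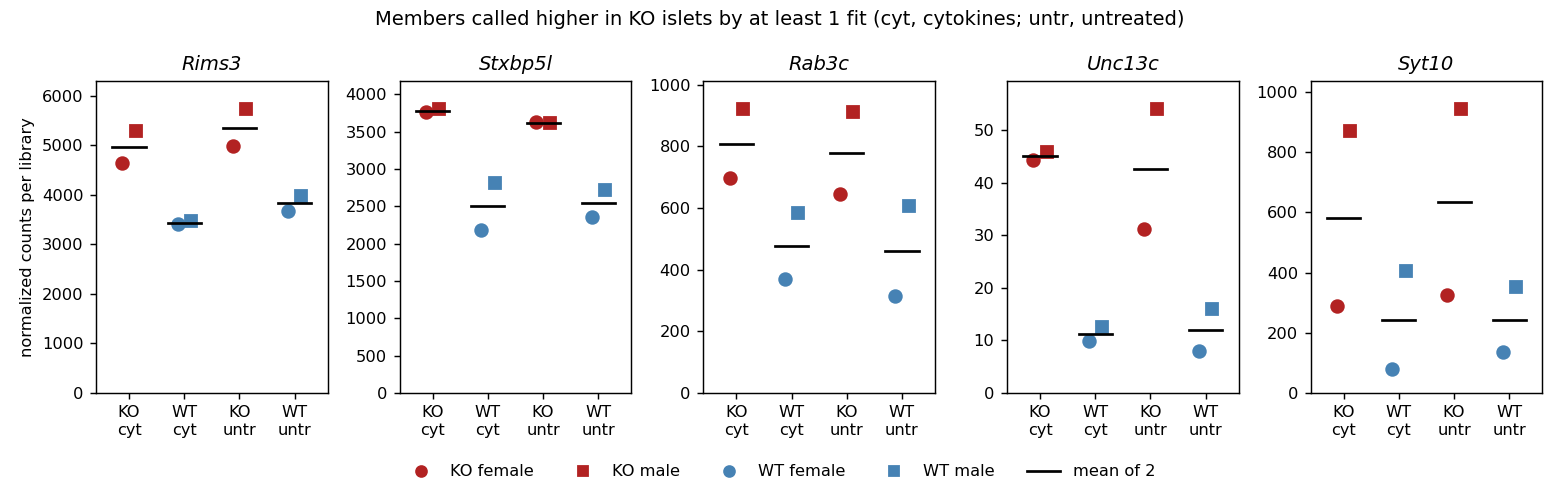
Normalized counts in each library of the 5 genes called higher in KO by at least 1 fit, with KO in red to the left of WT in blue for each culture, circles for females, squares for males and a bar for the mean of the 2. Rims3, Stxbp5l, Rab3c and Unc13c do not overlap between genotypes in either culture, and Syt10 does.

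With sex as a block, limma was also fitted on the 4 libraries of a single culture, a setting chosen after seeing the data. These 5 genes were the ones it called, all higher in KO. It is 1 of the fits by which the 5 were picked, so that match is no separate evidence. In untreated islets their adjusted p was 0.00915 for Rims3, 0.0112 for Stxbp5l, 0.00823 for Rab3c, 0.0342 for Unc13c and 0.000552 for Syt10. With cytokines the adjusted p was 0.0143 for Rims3, 0.00367 for Stxbp5l, 0.00068 for Rab3c, 0.0021 for Unc13c and 5.43e-08 for Syt10. That fit called 4.23% of all genes untreated, higher in KO 2.98%, and 5.81% with cytokines, higher in KO 4.01%, and it leaves a single residual degree of freedom per gene among the libraries. Fitted with limma on all 8 libraries, the sex block called 4 genes untreated, where 2.09% of all genes were called, and 5 with cytokines, where 3.75% were. The 4 were Rims3, Rab3c, Unc13c and Syt10. That fit counts both cultures of a mouse as separate, which makes its p-values too small. Nothing about the 68 genes as a group is read from these counts, since Unc13c, 1 of the genes called, entered the tables through its KO libraries, as given above. The 5 genes lie on 5 chromosomes, none of them chromosome 2, which holds Nfatc2.

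Of the genes at the core of fusion, none was called between genotypes by the authors' FDR or by a block fit. Syt7 had 6102 and 4933 normalized counts in KO libraries with cytokines, against 7691 and 5730 in WT libraries with cytokines. Untreated it had 6069 and 4892 in KO, against 7030 and 5728 in WT. KO was lower within each sex, but the groups overlapped.

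Snap25 pointed the other way, with a log2 fold change of 0.15 ± 0.18 untreated and 0.27 ± 0.18 with cytokines in the authors' deposited tables. Untreated, both KO libraries lay above both WT libraries, and with cytokines the female KO library (6555 normalized counts) lay below the male WT library (6717). Stx1a had 223 and 198 normalized counts in KO libraries with cytokines, against 248 and 167 in WT libraries with cytokines, and its log2 fold change in the authors' deposited tables was 0.02 ± 0.27 untreated and 0.03 ± 0.27 with cytokines. Vamp2 (0.04 and 0.08), Cplx2 (0.01 and -0.01), Rab27a (-0.05 and -0.04), Rab3a (-0.09 and 0.06), Unc13a (-0.11 and -0.15) and Rims2 (-0.09 and -0.12) had log2 fold changes untreated and with cytokines within 0.15 of zero in the authors' deposited tables. A missed threshold does not show equal levels: the 95% interval of Snap25 with cytokines ran between -0.08 and 0.62 on the log2 scale.

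By role, the called genes Rims3 and Stxbp5l belong to the priming group and to the syntaxin-binding genes. Of the 7 Unc13 and Rims genes, 1 was called untreated and 1 with cytokines, and of the 8 syntaxin-binding genes 0 untreated and 1 with cytokines. In the other 7 role groups 0 genes were called in any of the 4 comparisons in the authors' deposited tables. Of all genes 0.41% were called between genotypes untreated and 0.998% with cytokines. In groups this small, counts of 0 or 1 say nothing about a role. Plasma-membrane SNAREs had a median log2 fold change, KO over WT, of 0.00 untreated and 0.03 with cytokines. Vesicle SNAREs had 0.04 and 0.08, Golgi and endosome syntaxins -0.02 and 0.05, and synaptotagmins with Doc2 -0.03 and -0.12. The Unc13 and Rims group had 0.08 untreated and 0.53 with cytokines. That 0.53 is the value of Rims3 itself, the called gene, so it does not describe the group. Above it lay Rims1, Unc13d and Unc13c, which have low counts. Below it lay the more abundant Unc13a (-0.15), Rims2 (-0.12) and Unc13b (0.17). Unc13d, which primes cytotoxic granules in lymphocytes, had 52.0 and 64.5 normalized counts in KO libraries with cytokines, against 36.9 and 30.8 in WT libraries with cytokines, without a call (log2 0.79 ± 0.44 in the authors' deposited table, FDR 0.996). Leukocyte markers differed in the same direction, as given above, and 3 of their 6 measured genes were called higher in KO with cytokines in the authors' deposited table. Their part in the Unc13d value was not tested.

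Some markers of other cell types of the preparation differed between KO and WT as well. Endothelial markers were lower in KO with cytokines, with 4 of 7 called in the authors' deposited table and sums of 5555 and 4504 normalized counts in KO libraries against 9230 and 8408 in WT libraries. The summed stromal markers had 13091 and 4565 in KO libraries with cytokines, against 10038 and 2048 in WT libraries with cytokines. Untreated they had 9781 and 5104 in KO, against 1845 and 1535 in WT. Schwann and neural markers, of which 4 of 8 were measured, had sums of 392 and 475 in KO libraries with cytokines against 341 and 278 in WT libraries, and 458 and 468 untreated against 359 and 298. The single markers were split: 2 had a positive and 2 a negative log2 fold change, KO over WT, in each culture. Their median was 0.57 untreated and -0.01 with cytokines. Acinar markers, mostly digestive enzymes of the exocrine pancreas, were measured for 14 of 16 listed genes. With cytokines 14 of 14 had a positive log2 fold change, KO over WT, in the authors' deposited table, with a median of 2.02 and 0 called. Their sums were 136997 and 26111 normalized counts in KO libraries with cytokines, against 33117 and 8050 in WT libraries with cytokines, and 80688 and 36860 in untreated KO libraries, against 71250 and 10962 in untreated WT libraries. The groups overlap, and the female library was the higher one in each group. With cytokines over untreated in WT, 14 of 14 had a negative log2 fold change in the authors' deposited table, with a median of -1.03, and in KO 13 of 14 a positive one, with a median of 0.54 and 0 called in either. Of 3 delta and PP markers, Ppy (pancreatic polypeptide) was higher in untreated KO than in untreated WT and the other 2 were lower, with 0 called. Ppy had 31760 and 29544 in untreated KO libraries, against 13514 and 21338 in untreated WT libraries (log2 0.815 ± 0.236, FDR 0.0942). With cytokines over untreated, Ppy was called lower in KO (log2 -0.845 ± 0.158, FDR 0.000475). The part of these cells and of leukocytes in the Rims3, Stxbp5l, Rab3c, Unc13c and Syt10 values was not tested.

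Among partners of the machinery outside the 68 genes, 1 was called. Of 9 genes of SNARE recycling and dense-core priming, 21 Rab and active-zone partners, 10 exocyst genes, 15 measured vesicle membrane proteins, 17 other SNAREs and 14 channels that trigger release, 0 were called in any of the 4 comparisons in the authors' deposited tables. Of 14 granule cargo genes 1 was called, Vgf, a neuropeptide precursor, in untreated islets. Of all genes 0.41% were called between genotypes untreated and 0.998% with cytokines. For the cytokine response those shares were 0.0429% in KO and 0.0122% in WT. At such shares, counts of 0 or 1 say little about the partners in particular. Vgf had 2369 and 2070 normalized counts in untreated KO libraries, against 3545 and 3176 in untreated WT libraries. Its log2 fold change was -0.60 ± 0.15 in the authors' deposited table (FDR 0.0254).

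Sv2b, a glycoprotein of synaptic vesicles that interacts with synaptotagmin, showed the largest difference among these partners without a call. It had 592 and 568 normalized counts in KO libraries with cytokines, against 1323 and 3523 in WT libraries with cytokines. Untreated it had 620 and 544 in KO, against 1561 and 3471 in WT. KO libraries were close to each other, and the male WT mouse had more than the female WT mouse in both cultures. The log2 fold change in the authors' deposited tables was -2.11 ± 0.61 untreated (FDR 0.0876) and -2.06 ± 0.61 with cytokines (FDR 0.0633). Cacna1e, the pore of R-type calcium channels, had 131 and 61.4 normalized counts in untreated KO libraries, against 39.9 and 25.2 in untreated WT libraries, and its log2 fold change in the authors' deposited table was 1.56 ± 0.62 (FDR 0.531). Myrip, which links Rab27a to myosin and actin, had 267 and 267 in untreated KO libraries, against 382 and 407 in untreated WT libraries (log2 -0.56 ± 0.18 in the authors' deposited table, FDR 0.211).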

How the data were processed

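Bulk RNA of mouse islets was sequenced in 8 libraries, 2 in each of 4 groups. As tools, the submitters' processing notes list DESeq2, HISAT2 and HTSeq, with GRCm38 as the build; no version, role or strandedness of the reads is given. The files are the authors' comparison tables, 4 in all. Their signal columns, as deposited by the authors, are group or overall averages of counts after division by a size factor per library. The log2 fold change, the score (a Wald statistic) and the p-value come from the authors' model. The FDR deposited with them matched a Benjamini-Hochberg adjustment over the 16333 genes. No gene in the deposited tables averages below 23.2 normalized counts, which shows an earlier filter on low genes. The tables call the second genotype Mut, which matches no label, and it was taken for WT as the remaining genotype. Standard errors were computed as log2 fold change over score.

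A gene was called at an FDR below 0.05 in the authors' deposited tables. The members, lists and tests were chosen with earlier results of these data known. Genes named with values are 10 with known roles in insulin granule exocytosis, those called or with the 3 smallest p-values per direction and comparison, the 8 highest per kilobase, the lowest, and the extremes of each role group. One of the 10 is not reported here. Stx3, Stx4a, Syt1, Syt2, Syt5, Syt9, Rab3b, Doc2b, Stxbp5, Rab3c, Unc13d and Syt10 are beyond that rule in some places and were chosen after their values were seen. Genes of other lists are named only from those with the smallest p in their list and comparison, and Vgf, Sv2b, Cacna1e, Myrip and Ptprc were picked from these after their values were seen.

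Whole reads were recovered from the digits of the group means, since each mean combines 2 libraries whose reads are whole numbers. This settled 16314 genes (99.88%), of which 16096 met the mean over all libraries within a relative 2e-14 and 218 were settled by that mean. The 19 left include Ins1, Ins2 and Gcg. Libraries of a group were told apart by reads of 4 Y-linked genes, at least 7516 in male and at most 37 in female libraries. Replicates are mice, and each mouse gave a treated and an untreated culture. Same-mouse libraries deviated together from their group means (r = 0.811 in KO and 0.829 in WT over 12355 genes), and so did libraries of 1 sex across genotypes (r = 0.617 untreated, 0.575 treated). Alternatives used limma 3.58.1 in R 4.3.3 on log2(normalized counts + 1), tested on simulated data. Lengths and positions are from GENCODE release M21. Of the 68 genes, 5 share over 10% of exonic bases with another gene (Snap47, Syt4, Stx18, Rab3gap2, Syt12), and Stxbp3 has a pseudogene, Stxbp3-ps, with a mean of 47.4 normalized counts. With 2 mice per group an exact permutation test cannot give a two-sided p below 0.333.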

Additional observations from a re-analysis of the deposited data

Results flagged for a closer look

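Syt5, a synaptotagmin of dense-core vesicles, was higher with cytokines in both KO mice and lower in both WT mice. The log2 change within the mouse was 0.12 (female) and 0.17 (male) in KO and -0.11 and -0.12 in WT. The difference of the responses, KO minus WT, was 0.27 ± 0.19 on the log2 scale, with adjusted p = 1.00 by the test on the authors' deposited tables. Opposite directions of this kind were seen in 4 of the 68 exocytosis genes and in 8.39% of all recovered genes.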

How the results depend on the processing

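For the cytokine responses and their difference between genotypes, 0 of the 68 genes were called under each setting run: the authors' FDR, that adjustment over genes with a mean of at least 100, limma with and without a replicate block, with a pseudocount of 10, with scaling to total reads, and without each mouse in turn. The genotype comparisons depend on the setting. Untreated, the authors' FDR called 1 gene. It called 0 when adjusted over genes with a mean of at least 100 (Rims3 adjusted p = 0.0546), and limma called 0 with no replicate block, with a pseudocount of 10, with scaling to total reads, and without each mouse in turn (0 to 0). limma with the replicate block by sex called 4 (Rims3, Rab3c, Unc13c, Syt10), and 5 when fitted on the 4 libraries of 1 culture, a setting chosen after seeing the data. With cytokines the authors' FDR called 2 genes, also over genes with a mean of at least 100. limma called 0 with no replicate block, with a pseudocount of 10, with scaling to total reads and without each mouse (0 to 0), and 5 with the replicate block by sex in both fits. The block fit on 8 libraries counts both cultures of a mouse as separate, so its p-values are too small. Over these settings the log2 fold change of Rims3 stayed between 0.39 and 0.58 untreated (adjusted p 0.00915 to 1.00) and 0.43 and 0.62 with cytokines (0.011 to 1.00), and that of Stxbp5l between 0.43 and 0.79 with cytokines (0.00367 to 1.00). Of 230 recomputed gene values over 25 pairs of gene and comparison, 203 kept their side of the threshold, 5 came to pass it, 22 no longer passed it and 0 changed sign. The cause of the differences between fits was not tested. Depth limits Unc13c, Stx11, Syt6 and Rims1, which rest on few reads.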
